A study of Homo sapiens with 8 samples.

Results

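Retinoid and vitamin D signalling was followed through 9 genes in LX-2 cells, a human hepatic stellate cell line. The genes were taken by symbol (RARA, RARB, RARG, RXRA, RXRB, CRABP2, STRA6, VDR and CYP24A1) from the 16796 genes of the count files, and all 9 were found. The cells grew in DMEM with 5% fetal bovine serum and were given DMSO vehicle (control) or 50 µM OSMI-1, an inhibitor of O-GlcNAc transferase (OGTi), for 24 h. Each group had 4 libraries of polyadenylated RNA from biological replicates, and both groups came from the same single cell line, so the spread between libraries is that of independent cultures and not of donors. Library totals ran from 24166756 to 28201215 counts. All 9 markers of activated stellate cells on the list used were read in every group, with a summed level of 219060 to 247660 normalized counts in control and 166240 to 198310 in OGTi libraries, and 7 of them were lower and 1 was higher in OGTi. Of 8 quiescent stellate markers, 4 (LRAT, GFAP, HAND2 and DES) had a mean under 5 normalized counts, and the summed level was 2353 to 2623 in control and 3167 to 4833 in OGTi libraries, with 2 of the 6 tested higher (NGFR and PLIN2) and 1 lower (RELN). NGFR alone went from a mean of 104 to 1638. Markers of hepatocytes summed to 21.8 to 76.0 in control and 25.96 to 74.0 in OGTi libraries over the 3 of 7 listed genes that were read. Endothelial markers (4 of 6 read) summed to 47.7 to 91.1 in control and 20.03 to 39.3 in OGTi libraries, with 1 of the 3 tested lower (CDH5), and cholangiocyte markers (3 of 5 read) summed to 681 to 1151 and 955 to 1273, with 1 higher (SOX9) and 1 lower (KRT7). Most of the cholangiocyte sum was SOX9, with a mean of 940 over the 8 libraries, against 82 for KRT7 and 1 for KRT19. The part of these shifts in the results on the 9 genes was not tested.

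Stellate cells are the main vitamin A store of the liver. Retinol that enters the cell can be held as retinyl ester in lipid droplets or oxidized through retinal to retinoic acid, which binds the retinoic acid receptors (RARs). The vitamin D receptor (VDR) is bound by calcitriol, the active form of vitamin D. RARs and VDR both act on DNA as pairs with a retinoid X receptor (RXR), and both induce the enzyme that destroys their own ligand, CYP26 hydroxylases for retinoic acid and CYP24A1 for calcitriol. Stellate cells are known to lose their vitamin A store as they become activated.

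VDR showed the largest response among the genes that could be measured well, with a level about 2.10-fold that of control, and CYP24A1, its classical target gene, was read in every control library and in no OGTi library. The receptors for retinoic acid moved in opposite directions by small amounts, RARA up and RARG down, and so did the RXRs, RXRB up and RXRA down. CRABP2 and RARB did not pass the test, and STRA6 was almost unread. Of the 9 genes, 8 had a total of at least 10 counts and were tested, and 6 of these passed a q-value (adjusted p) of 0.05 in DESeq2 with replicate number as a block, 3 higher (RARA, RXRB and VDR) and 3 lower (RARG, RXRA and CYP24A1). The same threshold called 46.6% of all genes with a q-value, 22.7% higher and 24.0% lower, so that a call was common in this comparison. CYP24A1 came through the low-count filter on its control reads alone. The lowest and highest values of the groups did not overlap for 7 of the 8 tested genes, against 38.0% of all tested genes. OGTi was the higher group for 3 (18.8% of all tested genes) and the lower for 4 (19.2%). CYP24A1, kept on its control reads alone, is counted among the 7 and the 4. All values are normalized counts, that is, counts divided by the library's size factor, unless a level per kilobase is named. In bulk RNA, fewer cells expressing a gene and less RNA per cell cannot be told apart.

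**Figure D1:**
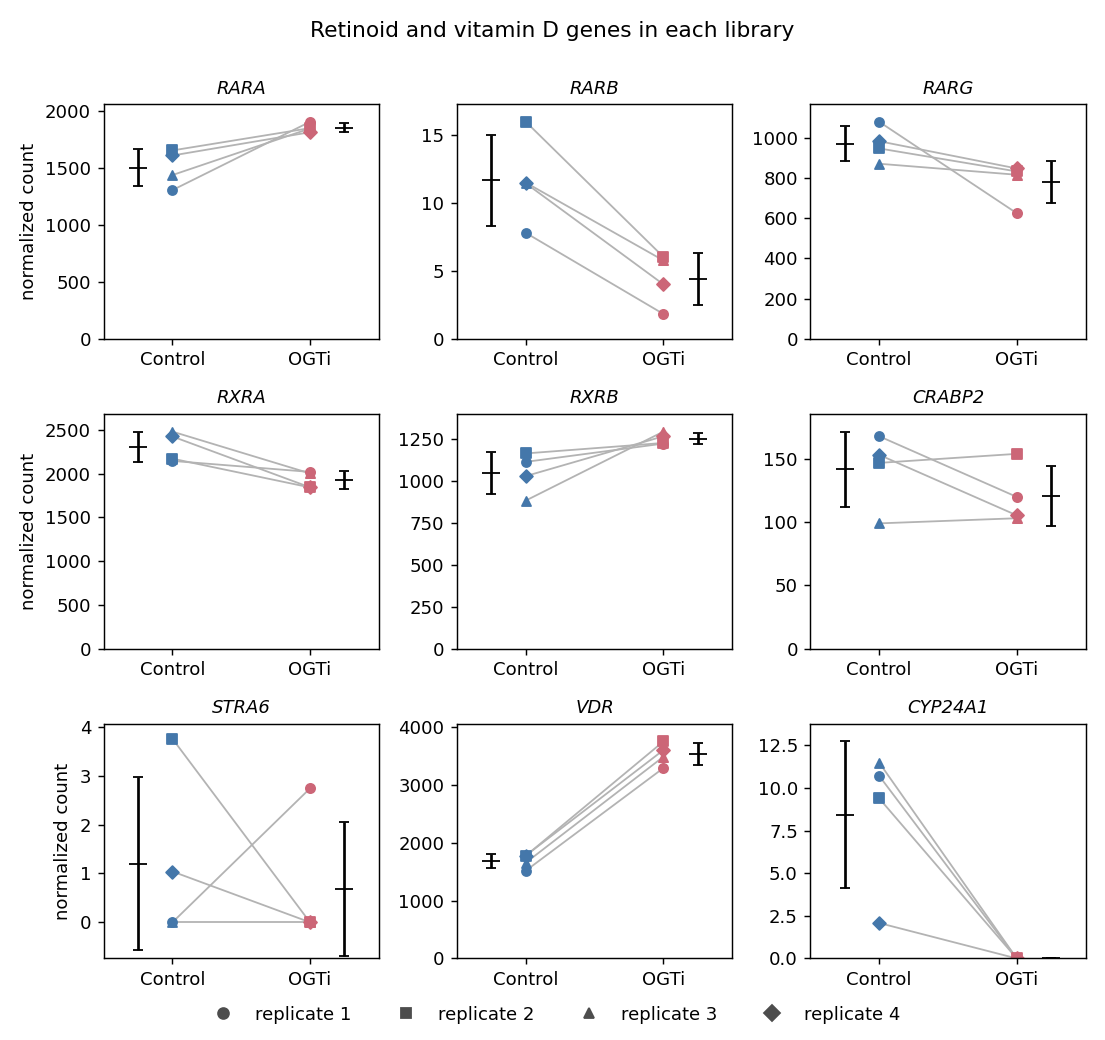
Normalized counts (y axes, linear, each gene on its own scale) of the 9 genes in the 4 control and 4 OGTi libraries, with 1 symbol per replicate, lines joining libraries of the same replicate number and bars for the group mean ± SD. VDR lay between 1516 and 1778 in control and between 3287 and 3747 in OGTi libraries, whereas the CRABP2 groups overlapped.

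STRA6 is a membrane receptor that takes up retinol from its carrier in blood. The gene (chr15:74179466-74212267 in hg38, minus strand) had 0, 4, 0 and 1 counts in control replicates 1 to 4 and 3, 0, 0 and 0 in the OGTi replicates. With 5 counts against 3 in all, it fell under the filter and was not tested, and no difference was detectable at this depth. CRABP2 carries retinoic acid to the RARs in the nucleus. Its level (chr1:156699606-156705816, minus strand) was 168, 147, 98.8 and 153 in the control replicates and 120, 154, 103 and 105 in the OGTi replicates. The groups overlapped, with OGTi higher in 2 pairs and lower in 2. The means were 141 ± 29.8 and 120 ± 23.4 (SD, n = 4 each), and the log2 fold change of -0.23 ± 0.22 (SE) had a 95% interval from -0.65 to 0.20 and a q of 0.411 in DESeq2.

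RARA, the broadly expressed RAR, was at 1305, 1652, 1437 and 1608 normalized counts in control replicates 1 to 4 and at 1904, 1848, 1845 and 1812 in the OGTi replicates (chr17:40309180-40357643, plus strand). Every OGTi library lay above every control library, and the OGTi libraries were close to each other. The mean went from 1500 ± 160 to 1852 ± 37.9 (SD, n = 4), a log2 fold change of 0.31 ± 0.09 with q = 0.00241, and single pairs ranged from 0.16 to 0.54. RARG, which is best known in skin and cartilage, moved the other way. Its level (chr12:53210567-53232980, minus strand) was 1078, 946, 870 and 982 in control and 624, 832, 815 and 846 in OGTi libraries. OGTi replicate 1 was well below the other OGTi libraries, and the groups did not overlap, although the lowest control (870) and the highest OGTi library (846) were near each other. The mean went from 969 ± 86.6 to 779 ± 104, with a log2 fold change of -0.32 ± 0.12 and q = 0.0207. The call rested on replicate 1, for leaving it out gave -0.16 (q = 0.267), and leaving out replicate 4 gave -0.36 (q = 0.0554).

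RARB is itself a classical target of retinoic acid and is widely used as a readout of it. The promoter that carries the known element is shown for this reason, from 250 bases before to 50 bases after the RefSeq start site (GRCh38.p14, chr3:25428013-25428312, plus strand, 5′ to 3′). The capitals mark a direct repeat of 6-base receptor words with 5 bases between them (DR5), the arrangement that RAR-RXR pairs classically bind, here 53 to 37 bases before the start.
RARB promoter: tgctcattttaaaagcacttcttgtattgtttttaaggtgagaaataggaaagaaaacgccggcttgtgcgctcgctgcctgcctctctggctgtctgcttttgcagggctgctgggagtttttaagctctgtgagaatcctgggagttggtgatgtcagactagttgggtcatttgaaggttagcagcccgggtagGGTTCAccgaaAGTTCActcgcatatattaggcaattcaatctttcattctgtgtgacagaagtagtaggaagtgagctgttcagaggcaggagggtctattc
The same kind of repeat is set beside it from the promoter of CYP26A1, which clears retinoic acid (chr10:93073803-93073819, minus strand, 90 to 74 bases before the start), again with the words in capitals.
RARB DR5: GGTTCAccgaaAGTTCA
CYP26A1 DR5: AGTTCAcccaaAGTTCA
The words searched on both strands were AGGTCA and its variants AGTTCA or GGGTCA or GGTTCA, and a DR5 was found in 31 of 35116 RefSeq promoter windows of this length (0.0883%). Repeats with 3 bases between the words (DR3), the arrangement classically bound by VDR-RXR pairs, were found in 26 windows (0.074%). A single word was common, in 38.6% of windows. RefSeq windows were found for 7 of the 9 genes, all but VDR and CYP24A1, which were not searched. Of their 18 windows, 8 held at least 1 word, and only the RARB window printed above held a direct repeat with a spacing of 1 to 5 bases. RARB had other windows, and these held none. A match in these windows describes letters and not binding.

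The RARB gene (chr3:24687887-25597932, plus strand) gave few reads in LX-2 cells. Counts per gene do not tell which of its promoters the reads came from. Control replicates 1 to 4 had 8, 17, 10 and 11 counts and OGTi replicates 2, 6, 6 and 4, or 46 against 18 in all. Every OGTi library was below every control library. Normalized means were 11.7 ± 3.35 and 4.41 ± 1.94 (SD, n = 4), and the log2 fold change of -1.47 ± 0.80 did not pass (95% interval -3.04 to 0.11, q = 0.125 in DESeq2). CYP26A1 had 2 counts in all control libraries and 1 in all OGTi libraries. Of the 29 genes with a DR5 in a promoter window, 10 were tested and 9 had a q-value. Of these 9, 1 was higher and 2 were lower, against 22.7% and 24.0% of all genes with a q-value. The median log2 fold change was 0.09 against 0.00 for all tested genes.

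RXRA, the RXR that partners RARs, VDR and many other receptors in liver cells, was at 2146, 2172, 2481 and 2426 normalized counts in the control replicates and at 2021, 1843, 2004 and 1844 in the OGTi replicates (chr9:134317098-134440585, plus strand). All OGTi libraries were below all control libraries. The mean went from 2306 ± 172 to 1928 ± 97.5 (SD, n = 4), with a log2 fold change of -0.26 ± 0.08 and q = 0.00551, and the call was lost without replicate 4 (-0.21, q = 0.0985). RXRB, a more evenly expressed paralog, changed in the opposite direction. It was at 1115, 1165, 884 and 1030 in control and at 1224, 1227, 1295 and 1267 in OGTi libraries (chr6:33193588-33200665, minus strand). Control replicate 3 was the lowest library, and the groups did not overlap. The mean went from 1048 ± 123 to 1253 ± 34.0, with a log2 fold change of 0.26 ± 0.10 and q = 0.0237. Without replicate 3 it was 0.17 with q = 0.254, and without replicate 4 it was 0.25 with q = 0.122. RXRG, the remaining RXR, had 1 count over the control and 1 over the OGTi libraries.

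VDR had 1516, 1774, 1654 and 1778 normalized counts in control replicates 1 to 4 and 3287, 3747, 3482 and 3597 in the OGTi replicates (chr12:47841537-47943048, minus strand). The groups were far apart and the pairs agreed closely, from 1.02 to 1.12 on the log2 scale. The mean went from 1680 ± 124 to 3528 ± 194 (SD, n = 4), a log2 fold change of 1.07 ± 0.07 with q = 4.09e-46 in DESeq2. By the absolute Wald statistic VDR stood at place 134 of 14895 tested genes. A rise of this size is uncommon in the comparison, where 4.08% of genes with a q-value were called and at least 2-fold higher, but it was only the 513th largest fitted rise of the 3181 called. No alternative processing took the VDR log2 fold change outside 1.06 to 1.09.

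CYP24A1, the mitochondrial hydroxylase that begins the breakdown of calcitriol and a standard readout of VDR activity, moved against its receptor. The gene (chr20:54153446-54173986, minus strand) had 11, 10, 10 and 2 counts in control replicates 1 to 4 and 0 in each OGTi replicate, or 33 against 0 in all. Control replicate 4 was the lowest control library, and its 2 counts are within what a count of 0 allows in 1 library (3 counts). Taking 3 counts over the OGTi group as the limit that 0 allows, the control level was 11.6-fold that limit. It was 7.68-fold to 10.9-fold the limit when 1 replicate was left out. The control level was taken as read, so error in its 33 counts is not in these values. Because the gene passed the filter on its control reads alone, its q-value in DESeq2 (0.00157) is given as a description and not as support for the difference. Of all genes with a q-value, 4.48% were called and at least 2-fold lower. Without replicates 2, 3 or 4 DESeq2 gave no q-value, and the unadjusted p values of its model, given likewise, were 0.00527, 0.00698 and 0.000832. The fold limits cover counting error of the OGTi zeros only.

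**Figure D2:**
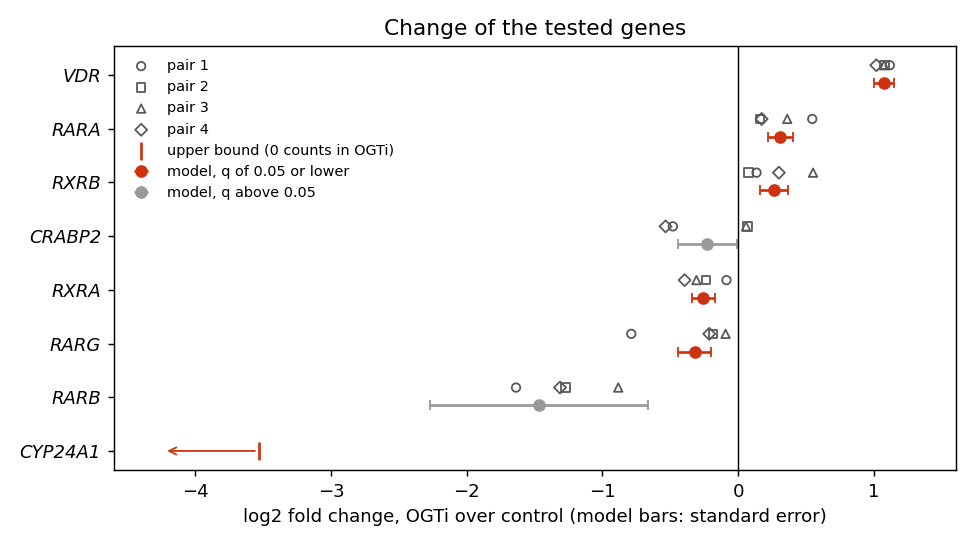
Log2 fold change of OGTi over control (x axis) for the 8 tested genes, with open symbols for the 4 replicate pairs and filled symbols with SE bars for the DESeq2 fit, red where q was at or below 0.05 and grey where it was above. VDR stands apart at 1.07, and the RARs and RXRs that passed lie between -0.32 and 0.31. CYP24A1 had no OGTi counts and is drawn as an arrow from -3.53. That is the value at 3 OGTi counts against the control level as read.

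Levels can be set side by side between genes only after division by transcript length, here the canonical GENCODE transcript. On this scale of normalized counts per kilobase, the control order was RARA (458 ± 49.0), RXRA (416.5 ± 31.0), VDR (364 ± 26.8), RXRB (363 ± 42.6), RARG (332 ± 29.7), CRABP2 (145 ± 30.5), RARB (3.73 ± 1.07), CYP24A1 (2.57 ± 1.32) and STRA6 (0.44). The ranges of RARA and RXRA overlapped, as did those of VDR and RXRB, of RXRB and RARG, of RARB and CYP24A1, and of CYP24A1 and STRA6, so these neighbours did not differ beyond their spread. Under OGTi the order of levels per kilobase was VDR (764 ± 42.0), RARA (566 ± 11.6), RXRB (434 ± 11.8), RXRA (348 ± 17.6), RARG (267 ± 35.7), CRABP2 (124 ± 24.1), RARB (1.41 ± 0.62), STRA6 (0.25) and CYP24A1 at 0. Among the first 7, no neighbours overlapped, whereas RARB overlapped with STRA6 below it. VDR thus stood below RXRA in every control library and above RARA in every OGTi library on this scale.

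**Figure D3:**
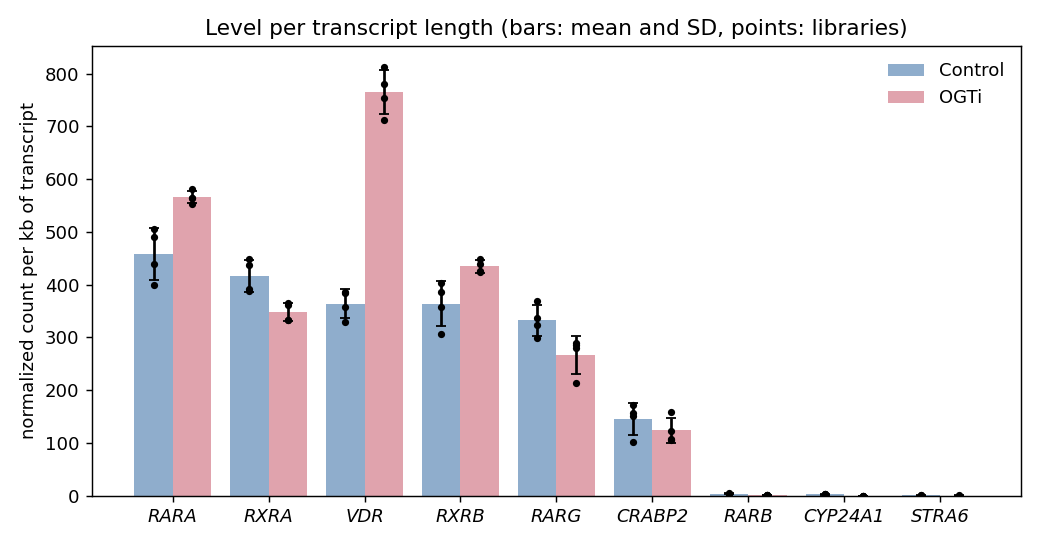
Normalized counts per kilobase of canonical transcript (y axis, linear from 0) for the 9 genes in control and OGTi libraries, with points for libraries and bars for the group mean ± SD. VDR lies at 328 to 385 in control and 712 to 812 in OGTi libraries, and RARB, CYP24A1 and STRA6 lie far below the other genes in both groups.

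Apart from the pseudocount of 1 added to each normalized count, ratios of receptors within a library do not depend on how libraries are scaled. Of such ratios, 4 were compared by an exact two-sided permutation test with adjustment over the 4. The ratio of RARA to RARG had a mean log2 value of 0.63 ± 0.24 in control and 1.26 ± 0.24 in OGTi libraries (SD, n = 4, exact p = 0.0286, q = 0.0381), which is 1.55 against 2.39 on the linear scale. OGTi replicate 1 was the highest at 1.61, the other OGTi libraries were at 1.10 to 1.18, and the difference of 0.63 was 0.40 without replicate 1. The ratio of RXRA to RXRB went from 1.14 ± 0.28 to 0.62 ± 0.08 on the log2 scale (exact p = 0.0286, q = 0.0381), or from 2.21 to 1.54. VDR to RXRA, the ratio of the receptor to its partner, went from -0.46 ± 0.12 to 0.87 ± 0.15 (exact p = 0.0286, q = 0.0381), or from 0.729 to 1.83. The groups did not overlap for these 3 ratios, and all 4 pairs moved in the same direction. Each sets a gene higher in every OGTi library against a gene lower in every OGTi library. The exact p of each was thus fixed by the values of its 2 genes, and it describes them without adding support. RARB to RARG differed by -0.96 with overlapping groups, although all 4 pairs were lower (exact p = 0.0857, q = 0.0857). With few RARB reads this value depended on the pseudocount of 1, and it was -0.51 with a pseudocount of 5 and -1.06 with 0.5. The value 0.0286 is the smallest that 4 libraries against 4 can give, and a sign-flip test over the 4 pairs cannot go below 0.125, the value it gave for each of the 3.

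**Figure D4:**
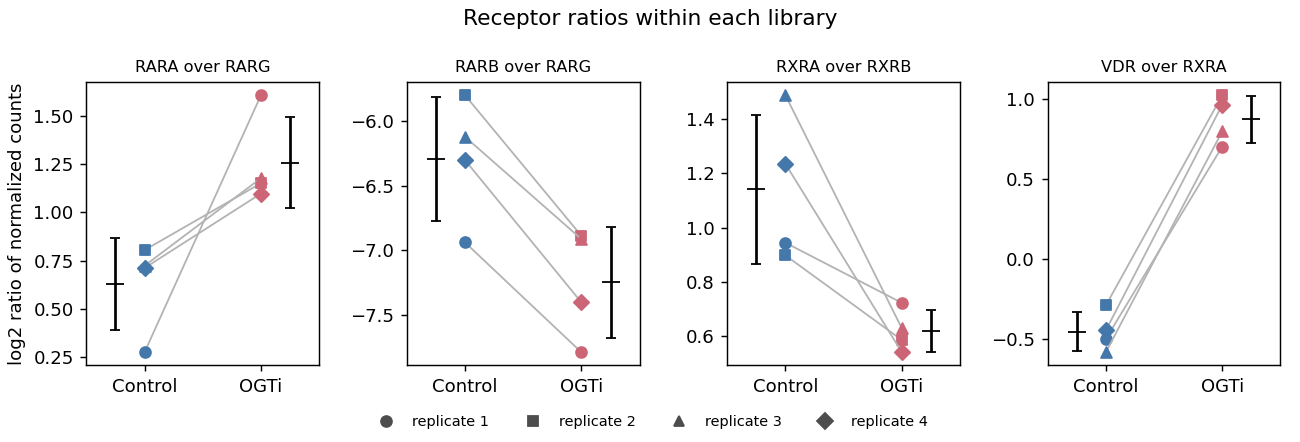
Log2 ratios of normalized counts (y axis, pseudocount 1) for 4 receptor pairs, with 1 symbol per replicate, lines joining the same replicate number and bars for the group mean ± SD. RARA over RARG and VDR over RXRA were higher, and RXRA over RXRB was lower, in every OGTi library than in every control library.

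The genes that make, hold and oxidize retinol were examined as lists, leaving out the 9 genes, and are described by counts and medians only. The counts of every list are to be read against all genes with a q-value, of which 22.7% were higher and 24.0% lower. The share called ran from 27.3% for retinol and retinal oxidation to 81.8% for VDR targets, against 46.6% of all genes. Of 11 genes of retinol storage and mobilization, 8 were tested, 4 were higher and 1 was lower, with a median log2 fold change of 0.41 against 0.00 for all genes. DGAT1, an enzyme of triglyceride synthesis that can also esterify retinol, rose from 675 ± 85.9 to 1721 ± 80.6 normalized counts (SD, n = 4, log2 fold change 1.35 ± 0.10, q = 3.44e-38). The lipases LIPA (0.71 ± 0.09, q = 1.51e-14) and PNPLA2 (0.51 ± 0.09, q = 1.67e-08), which act in lysosomes and on lipid droplets, also rose, and so did the droplet coat gene PLIN2 (0.30 ± 0.11, q = 0.0129), whose groups overlapped. The PLIN2 call was lost without the replicate block (q = 0.0617), without replicate 2 (0.23, q = 0.153) and without replicate 4 (0.31, q = 0.0619). RBP7, an intracellular retinol-binding protein named after its values were seen as the only gene of the list called lower by DESeq2, had a log2 fold change of -2.68 ± 0.59 at a mean of 19.8 normalized counts (q = 2.35e-05). By edgeR with the block, and at an unadjusted p under 0.05, 2 genes of the list were lower, the other at the unadjusted threshold being the lipase LIPE (-0.22 ± 0.11, q = 0.0916 in DESeq2). LRAT, the main retinol-esterifying enzyme of quiescent stellate cells, had a mean of 1.72 normalized counts.

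Of 20 genes of retinol and retinal oxidation, 16 were read, 12 were tested and 3 were higher, with a median of 0.27. The share called of the 11 with a q-value, 27.3%, was below the 46.6% of all genes. The 3 called genes encode short-chain retinal reductases, whose step from retinal to retinol runs against the oxidation in the list's name. They were RDH13 (0.50 ± 0.14, q = 0.00104), RDH14 (0.55 ± 0.16, q = 0.00166) and RDH11 (0.24 ± 0.08, q = 0.00693). RDH14 was at q = 0.0593 without replicate 4, and RDH11 at q = 0.114 without replicate 2 and 0.0854 without replicate 4. None was called lower by DESeq2 or edgeR, and 0 were lower at an unadjusted p under 0.05. The enzymes that make retinoic acid itself were hardly read, with 0 and 1 counts for ALDH1A1 and 1.26 and 1 for ALDH1A2 in control and OGTi libraries, while ALDH1A3 had a mean of 42.8 and a log2 fold change of -0.35 ± 0.36 (q = 0.458).

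Of 6 genes of retinoic acid binding and clearance, 3 were tested and 1 was lower, and 0 were higher by DESeq2, by edgeR or at an unadjusted p under 0.05. That gene was CYP26B1, a retinoic acid hydroxylase and target of retinoic acid, at 50.4 ± 16.0 in control and 23.8 ± 9.01 in OGTi libraries (SD, n = 4, log2 fold change -1.11 ± 0.40, q = 0.0142). The groups did not overlap, but q rose to 0.0992, 0.119 and 0.0924 without replicates 1, 2 and 4. Of 17 retinoic acid target genes, 12 were tested, 2 were higher and 5 were lower, with a median of -0.35, and CYP26B1 is among them. MEIS2, a homeobox factor, fell from 779 ± 56.4 to 511 ± 24.6 (log2 fold change -0.60 ± 0.11, q = 6.70e-08). The corepressor NRIP1 (-0.48 ± 0.12, q = 0.000263) and the secreted chemerin RARRES2 (-1.02 ± 0.26, q = 0.000306) also fell, the former with overlapping groups. BHLHE40, a transcriptional repressor of the circadian system, rose by 0.58 ± 0.12 (q = 1.89e-05). Without replicate 1 the list held 1 higher and 3 lower genes.

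Of 9 genes of vitamin D activation and transport, 6 were tested and 4 were higher, with a median of 0.54, and 0 were lower by DESeq2, by edgeR or at an unadjusted p under 0.05. DHCR7, which turns the vitamin D precursor into cholesterol and so away from vitamin D, rose from 5734 ± 647 to 14363 ± 390 (SD, n = 4, log2 fold change 1.33 ± 0.07, q = 6.35e-69). PDIA3, a disulfide isomerase also described as a membrane binding protein for calcitriol, rose by 0.28 ± 0.06 (q = 3.57e-05). The hydroxylases that activate vitamin D, CYP2R1 (0.83 ± 0.28, q = 0.00843) and CYP27B1 (0.80 ± 0.33, q = 0.0376), rose at low levels of 53.6 ± 11.7 and 34.7 ± 7.83 in control libraries. The CYP2R1 call was lost without replicate 4 (q = 0.141) and the CYP27B1 call without any 1 of the 4 replicates (q = 0.0711 to 0.174).

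Of 20 VDR target genes, 12 were tested, 6 were higher and 3 were lower, with a median of 0.31. CDKN1A, a cell cycle inhibitor that is also a p53 target, rose from 1297 ± 240 to 4873 ± 857 (SD, n = 4, log2 fold change 1.91 ± 0.08, q = 1.91e-134). SPP1, the secreted phosphoprotein osteopontin, rose from 26.3 ± 10.1 to 94.8 ± 55.0 (1.79 ± 0.32, q = 1.23e-07), and THEMIS2, a signalling adaptor of myeloid cells, rose from 114 ± 28.1 to 257 ± 56.6 (1.18 ± 0.20, q = 1.45e-08). HBEGF, a growth factor of the EGF family, fell from 3953 ± 255 to 2956 ± 308 (-0.42 ± 0.07, q = 7.10e-08). Beside these, the 3 macrophage markers read summed to 2420 to 4042 in control and 5518 to 9310 in OGTi libraries, nearly all of it CD68, whereas PTPRC and CSF1R had means of 5 and 6. CYP24A1 thus had no OGTi reads, while of 11 other VDR targets with a q-value 6 were higher and 3 were lower. Of all genes with a q-value, 22.7% were higher and 24.0% lower.

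**Figure D5:**
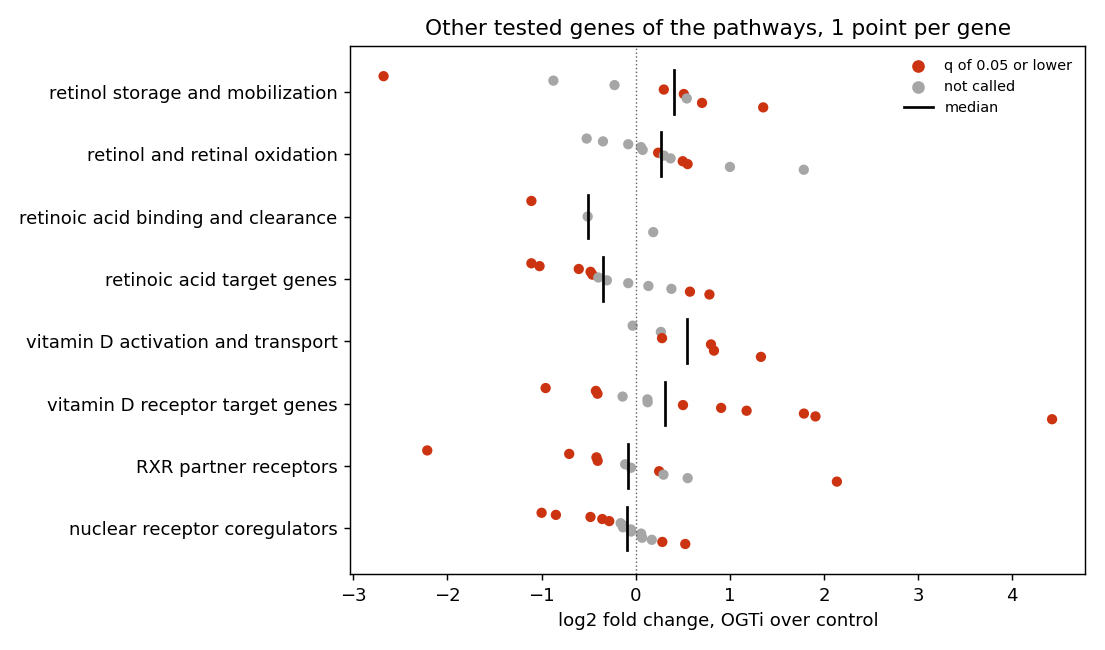
Log2 fold change of OGTi over control (x axis) for the tested genes of the 8 lists (y axis), with red points where q was at or below 0.05, grey points where it was above or absent, and a bar at each list's median. The medians run from -0.51 for retinoic acid binding and clearance to 0.54 for vitamin D activation and transport. The first of these is over 3 tested genes and is the value of FABP5, which was not called (q = 0.294 in DESeq2).

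The other receptors that share RXR, and the coregulators that RARs and VDR recruit, were mixed. Of 13 genes, RXRG and the receptors that partner RXRs, 10 were tested, 2 were higher and 4 were lower, with a median of -0.08. PPARG, the adipogenic receptor whose loss is a known feature of activated stellate cells, fell from 49.1 ± 18.9 to 11.0 ± 5.64 (SD, n = 4, log2 fold change -2.21 ± 0.45, q = 5.70e-06). The orphan receptor NR4A2 rose from 12.8 ± 7.55 to 53.0 ± 9.92 (2.14 ± 0.44, q = 7.60e-06). The thyroid hormone receptor THRA (-0.71 ± 0.10, q = 2.57e-11) and the oxysterol receptor NR1H2 (-0.42 ± 0.09, q = 1.09e-05) fell. All 16 coregulators were tested, and 2 were higher and 5 were lower, with a median of -0.09. The share called, 43.8%, was near the 46.6% of all genes. The arginine methyltransferase CARM1, a coactivator of nuclear receptors, fell from 4775 ± 418 to 2651 ± 196 (-0.85 ± 0.07, q = 2.47e-32). TBL1XR1, which belongs to a corepressor complex of nuclear receptors, fell from 998 ± 93.9 to 498 ± 22.1 (-1.0 ± 0.10, q = 3.14e-20). The coactivator PNRC1 rose (0.53 ± 0.10, q = 1.17e-06).

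The genes most like each member across the 8 libraries were found by the root mean square difference of centred log2 values over 10934 genes. For VDR these were TTC17 (0.0792), CAPRIN2 (0.0810) and STIM2 (0.0824), against a spread of VDR itself of 0.54. For RARA they were ZNF28, CCDC93 and SRGAP2 (0.0457 to 0.0522), and for RARG they were MAST1, PMPCB and ECHDC1 (0.0653 to 0.0703). The closest genes were G3BP1, ARHGAP35 and ZNF710 for RXRA (0.0332 to 0.0397) and YIPF1, ZDHHC6 and DCP1B for RXRB (0.0536 to 0.0565). CRABP2 was nearest to DPM3, TSPO and MPHOSPH6 (0.0776 to 0.109). The likeness follows the group difference together with the scatter of single libraries, and it is a description of these 8 libraries.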

How the data were processed

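RNA was measured in 8 libraries of LX-2 cells, 4 control and 4 OGTi, grouped by their titles (1 control label spells the vehicle DSMO). The authors aligned paired reads of strand-specific libraries to hg38 with Bowtie2 2.3.5.1 and estimated gene counts with RSEM 1.3.1, strand included. The deposited files hold these expected counts, which are not scaled for depth and share reads with several alignments between genes. The 9 genes had whole counts in every library. A further deposited table holds the authors' own comparison made with DESeq2 1.36.0 (means, fold changes and p-values) and was not used.

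Expected counts were rounded, genes with a total of at least 10 counts were kept (14895), and OGTi was compared with control by the Wald test of DESeq2 1.42.0 in R 4.3.3 with replicate number as a block, as in the study. Of these, 14028 genes had a q-value. Calls used q at or below 0.05 over the whole table. Replicate numbers were taken to pair the samples from the study's methods. Deviations from the group means of same-numbered libraries correlated at 0.379, 0.303, 0.138 and 0.269 over 11702 genes for replicates 1 to 4, although control 3 correlated at 0.272 with OGTi 4. Within a group, libraries differed by more than counting noise (chi-square per degree of freedom 8.66 to 36.2), so none was a copy. Depth of 24166756 to 28201215 counts limits genes with few reads, for which intervals cover counting error only.

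The members and lists were chosen with earlier results of these data known. Named genes were the 9 members, in each list up to 4 called genes with the largest absolute Wald statistic whose mean reached 20 normalized counts, and the 3 genes most like each member with a mean of at least 100. Listed genes without a value were not analysed here. Some named genes are not reported here. Positions and lengths came from GENCODE 44 (GRCh38) by symbol, and promoters from RefSeq (GRCh38.p14). Alternatives were the fit without the block, edgeR 4.0.16 with and without it, other filters and scalings, other pseudocounts (0.5 and 5) for the ratios, and each replicate left out. The count tests were tested on simulated data.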

Additional observations from a re-analysis of the deposited data

Results flagged for a closer look

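In 81 groups of 4 libraries, each for 1 gene or ratio, 7 held a library far from the other 3 by Dixon's test at the 95% level, where chance gives about 1 in 20, or 4.05. RARG had 624 normalized counts in OGTi replicate 1 against 815 to 846 in the others, and through it the log2 ratio of RARA to RARG was 1.61 there against 1.10 to 1.18. STRA6 was at 2.74 in OGTi replicate 1, which is 3 counts, and at 0 in the others. PLIN2 was at 935 in OGTi replicate 1 against 747 to 770. PDIA3 was at 14885 in OGTi replicate 2 against 13427 to 13652. In control libraries, RARRES2 was at 235 in replicate 1 against 112 to 128, and CDKN1A was at 1653 in replicate 4 against 1138 to 1218. No cause was tested.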

How the results depend on the processing

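Of the results on the 9 genes, lists and ratios, 194 alternative values were rated the same, 20 lost the call and 7 counts moved, and none changed sign. For a single gene or ratio, the same means the same direction and side of the threshold. A count of calls was rated the same if near its main value, as with 4 called members against 6 without replicate 3. The ratio calls that were lost could not have been kept, because the smallest p in those tests is 0.1 or 0.125. The replicate numbers were taken to pair the samples from the study's methods. Without the replicate block, DESeq2 called 6307 genes and edgeR 6041, against 6541, and no call on the 9 genes changed, while of the named list genes PLIN2 lost its call. The sign-flip test with the replicate block left the ratio differences at 0.63, -0.52 and 1.33 with p = 0.125, the smallest 4 pairs allow in this exact test. Leaving out 1 replicate gave log2 fold changes of -0.40 to -0.16 for RARG, -0.31 to -0.21 for RXRA and 0.17 to 0.33 for RXRB, and 2 to 5 called members (2, RARA and VDR, without replicate 4, where CYP24A1 had no q-value). Called genes then numbered 1 to 3 for retinol and retinal oxidation, 0 to 1 for retinoic acid binding and clearance, 4 to 7 for retinoic acid targets and 2 to 3 for vitamin D activation and transport. The log2 ratio differences were 0.40 to 0.72 for RARA to RARG, -0.62 to -0.41 for RXRA to RXRB and 1.3 to 1.37 for VDR to RXRA, with exact p = 0.1, the smallest that 3 against 3 allow. A filter of 10 counts in 4 libraries removed RARB and CYP24A1, so those genes rest on few reads. Only messenger RNA of 1 cell line at 1 dose and time was measured, with no measure of retinoids, of vitamin D or of receptor activity.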
